A study of Homo sapiens with 9 samples.

Results

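Transcript levels of 9 polyamine pathway genes (ODC1, AMD1, SRM, SMS, MAT2A, OAZ1, OAZ2, AZIN1 and SAT1) were examined in K562 cells, a human myelogenous leukaemia line. They were picked by name, as genes controlled by ribosomal frameshifting, upstream reading frames or poison exons, out of the 58214 genes to which the measured transcripts were assigned. The cells were transfected with a non-targeting siRNA pool (SCR), with an siRNA pool against DHX34 (DHX34 kd) or with siRNA against UPF1 (UPF1 kd), and all were harvested on day 4. Each group held 3 libraries of poly(A)-enriched RNA, which the study calls biological replicates, and both knockdowns were compared with the same 3 SCR libraries. UPF1 is a core factor of nonsense-mediated decay (NMD), which degrades mRNAs with a premature stop codon, and DHX34 is an RNA helicase that acts with it. Transient siRNA lowers these mRNAs without removing them, so neither group is a model of complete loss.

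Polyamines (putrescine, spermidine and spermine) are small cations that every growing cell needs, and their amount is held in a narrow range by feedback on RNA. ODC1 makes putrescine, AMD1 makes the aminopropyl donor from the S-adenosylmethionine that MAT2A supplies, and SRM and SMS join the parts into spermidine and spermine. The antizymes OAZ1 and OAZ2, whose translation needs a polyamine-dependent frameshift, send ODC1 to the proteasome, AZIN1 binds the antizymes in its place, and SAT1 acetylates spermidine and spermine for export or breakdown.

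Libraries held between 73478797 and 103625443 expected counts. Gene levels are given as normalised CPM, counts scaled to a common library size after the TMM correction for composition. DHX34 stood at 72.5, 74.1 and 74.7 CPM in SCR and at 30.04, 30 and 34.04 in the DHX34 kd. UPF1 stood at 252.4, 266 and 266.8 CPM in SCR and at 105.1, 107.2 and 104.4 in the UPF1 kd. All 10 markers fixed for K562 and erythroid cells were present at a mean of at least 37.3 TPM. Their summed level was 26228 TPM in SCR, 24761 in the DHX34 kd and 15964 in the UPF1 kd. Among the markers of other cell types reported here, EPCAM stood at a mean of 72.7 TPM, and MS4A1 and KRT5 were listed at 0. In bulk RNA fewer cells of a type and less RNA per cell cannot be told apart. The mean fragment length was 255 bases in SCR, 259 to 260 in the DHX34 kd and 252 to 257 in the UPF1 kd. The part of the marker levels and of the fragment length in the results below was not tested.

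Per transcript length the 9 genes spanned a wide range of levels in SCR. OAZ1 was the most abundant, at 1756 ± 10.99 TPM (SD, n = 3), followed by ODC1 at 530.1 ± 13.5, SRM at 406.7 ± 8.27, SMS at 154.9 ± 1.39 and MAT2A at 132.8 ± 12.5. AMD1 followed at 69.2 ± 1.53 TPM, AZIN1 at 55.9 ± 2.51, OAZ2 at 54.9 ± 1.04 and SAT1 at 20.6 ± 1.54 (SD, n = 3). AZIN1 and OAZ2, neighbours in this order, differed by less than their spread, and all other neighbours were separated in all 3 SCR libraries. In the third DHX34 kd library MAT2A (190.5 TPM) stood above SMS (148.3 TPM).

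Changes between groups are given from CPM, because the TPM of the median gene was itself higher in the knockdowns, by 0.16 (DHX34 kd) and 0.20 (UPF1 kd) on the log2(TPM + 0.5) scale. Of all genes called, 53.3% (DHX34 kd) and 49.0% (UPF1 kd) were higher from CPM, 87.8% and 91.8% from TPM, and 29.5% and 25.1% from TPM centred on the median of each library. In the DHX34 kd 5 of the 9 genes were called changed, at an edgeR adjusted p of at most 0.005 over all genes, where 10.4% of the 17004 genes tested were called. ODC1, SRM, SMS and OAZ2 fell, as 4.86% of all genes did, and AMD1 rose, as 5.54% did. In the UPF1 kd 5 of 9 were called as well, where 25.3% of 17184 genes were. ODC1, SRM, SMS and OAZ2 fell again, against 12.9% of all genes, and SAT1 rose, against 12.4%. The median log2 fold change of the 9 genes was -0.12 in the DHX34 kd and -0.05 in the UPF1 kd, against 0.02 over all genes tested in each. The DHX34 kd was separate from SCR in all libraries for 7 of the 9 genes (40.3% of all genes), and the UPF1 kd was for 6 (49.5% of all genes). Among genes called in the DHX34 kd the median absolute log2 fold change was 0.34, and in the UPF1 kd it was 0.31.

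**Figure D1:**
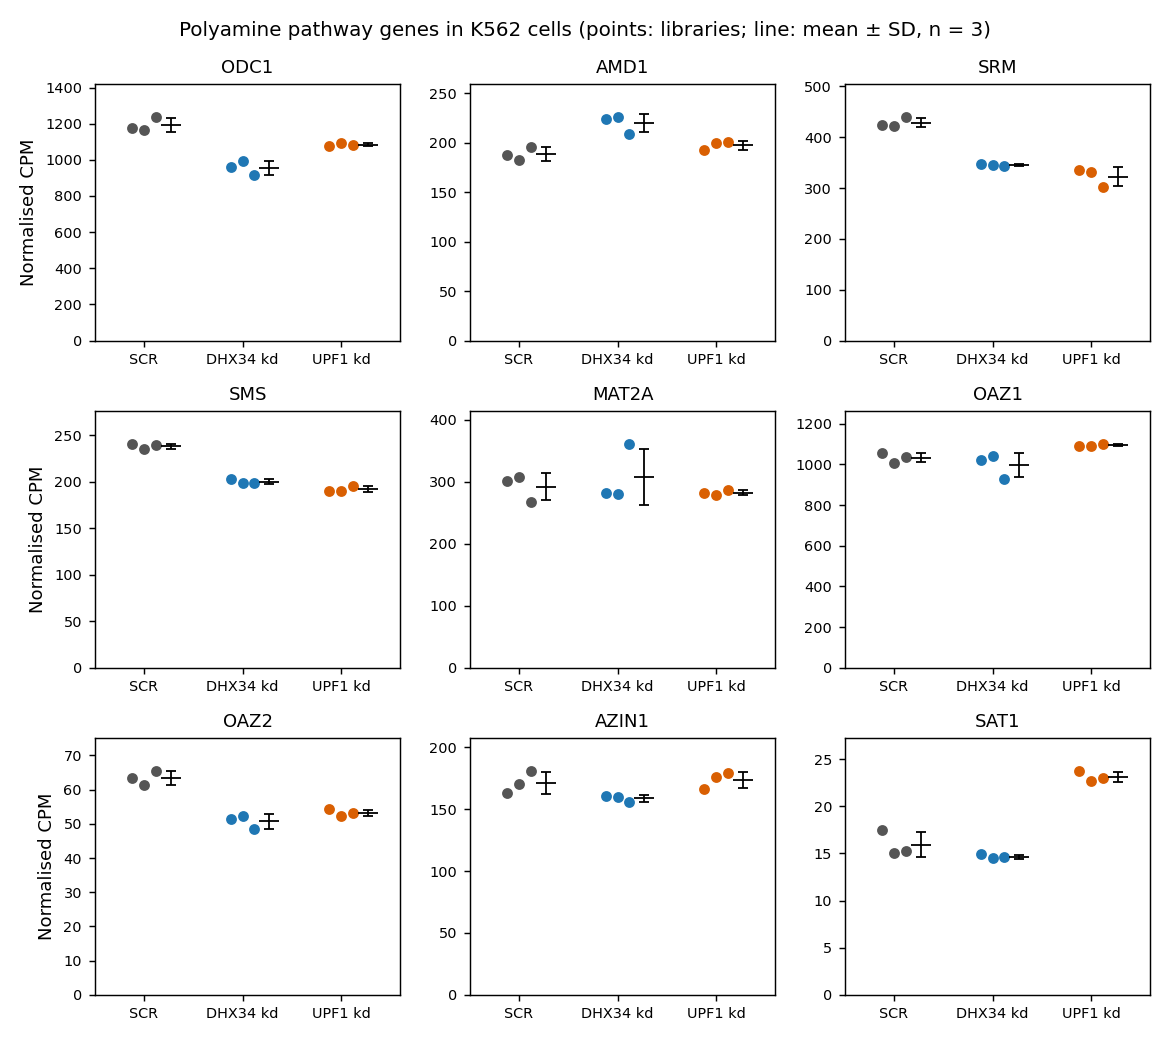
Normalised CPM (linear axes from 0) of the 9 genes, with 1 point per library and the mean ± SD of 3 libraries beside each group. SAT1 stands between 22.7 and 23.7 CPM in the UPF1 kd and at 17.5 or below in the other libraries, while ODC1, SRM, SMS and OAZ2 lie below SCR in both knockdowns.

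**Figure D2:**
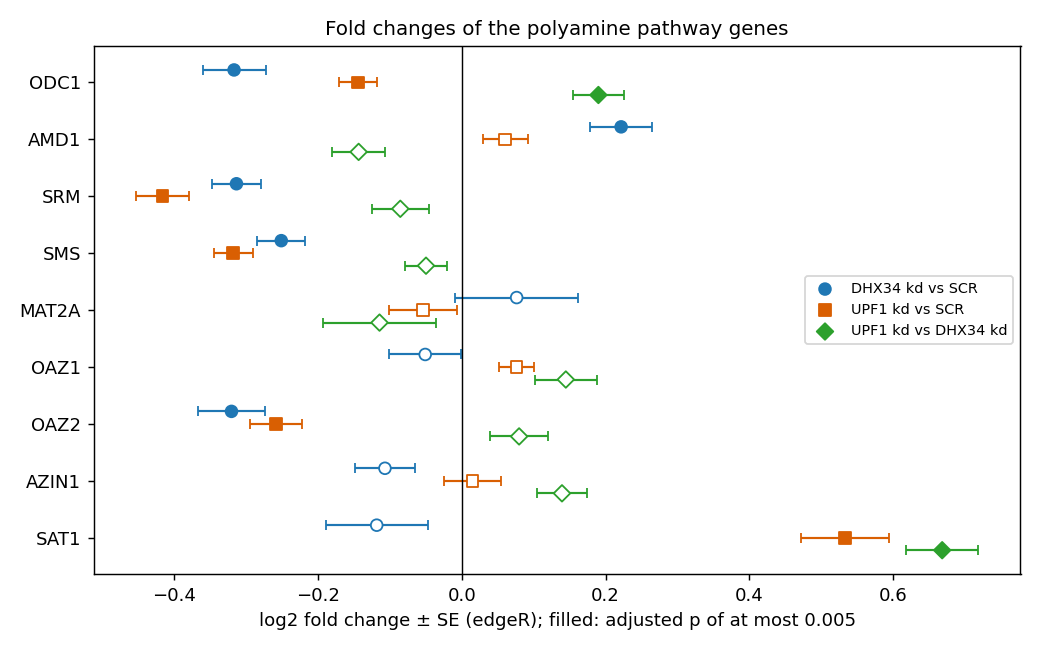
Log2 fold change ± SE of the 9 genes for each knockdown against SCR and for UPF1 kd against DHX34 kd, with filled symbols for an adjusted p of at most 0.005. SRM has the lowest value in the UPF1 kd (-0.42) and SAT1 the highest (0.53), and AMD1 is filled in the DHX34 kd only.

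ODC1 (ENSG00000115758), the rate-limiting decarboxylase of the pathway, was measured at 1178, 1163 and 1236 CPM in SCR. It stood at 959.4, 992.5 and 916.5 CPM in the DHX34 kd and at 1076, 1091 and 1080 CPM in the UPF1 kd. Both knockdowns lay below SCR in every library, and the DHX34 kd lay below the UPF1 kd. The log2 fold change was -0.32 in the DHX34 kd (SE 0.044, edgeR adjusted p 0.00051) and -0.14 in the UPF1 kd (SE 0.026, edgeR adjusted p 0.00075). The DHX34 kd call was lost on the log2(TPM + 0.5) scale (-0.14, limma adjusted p 0.013) and on that scale centred on the median (-0.36, limma adjusted p 0.0061). The UPF1 kd value turned to 0.12 on the log2(TPM + 0.5) scale. Its call was also lost with length-scaled counts (-0.10, adjusted p 0.017), with all 9 libraries in 1 fit (-0.14, adjusted p 0.0071) and without the first UPF1 kd library (-0.14, adjusted p 0.0059).

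ODC1 also has a transcript of NMD biotype, ODC1-204, and this moved the other way. Its exon 4 is 74 bases long, 100 bases shorter than exon 4 of the main coding transcript ODC1-201 (chr2:10439968-10448327, minus strand, GRCh38), which shifts the reading frame. The frame then ends at a stop codon after 43 codons, 1009 bases before the last exon junction. A stop codon far upstream of the last junction is the textbook mark of an NMD substrate. The stop lies in coding sequence of exon 4 at chr2:10444509-10444538, shown on the minus strand with the stop codon in capitals, because it sets the NMD biotype apart from the coding frame.
ODC1-204 stop: atgatagcaaagccatcgTGAagacccttg
ODC1-204 was at 6.24, 7.16 and 7.6 CPM in SCR, at 8.99, 11.9 and 8.43 in the DHX34 kd and at 15, 15.8 and 16.5 in the UPF1 kd. The 3 groups did not overlap, with the UPF1 kd highest. The NMD-biotype sum of ODC1 rose in the UPF1 kd by 1.13 on the log2 scale (SE 0.092, edgeR adjusted p 0.00016), while the protein-coding sum fell by 0.19 on the log2 scale (SE 0.027, edgeR adjusted p 0.0017). The protein-coding call was lost in 4 of the 6 fits made without 1 library (adjusted p up to 0.012). The NMD-biotype sum was not called in the DHX34 kd, where it was 0.47 higher on the log2 scale (SE 0.15, edgeR adjusted p 0.095). As a share of the gene's TPM the NMD biotype took 3.17% ± 0.26 in SCR, 5.46% ± 0.83 in the DHX34 kd and 7.51% ± 0.37 in the UPF1 kd (SD, n = 3). The model of ODC1-204 in the measured annotation is 665 bases long and that of the later annotation, from which the exons were read, 2358 bases.

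**Figure D3:**
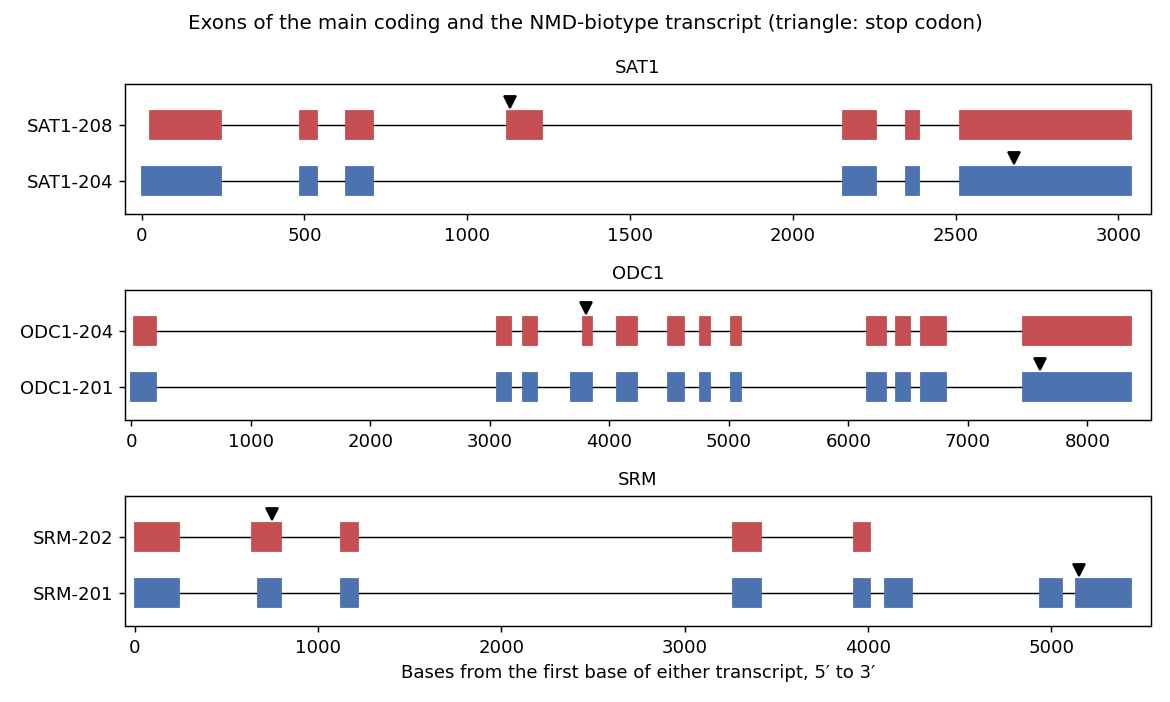
Exons (boxes) of the main coding transcript (blue) and the NMD-biotype transcript (red) of SAT1, ODC1 and SRM, to scale in bases from the first base of either, 5′ to 3′, with a triangle over each stop codon. SAT1-208 has 1 more exon than SAT1-204, of 110 bases, ODC1-204 a shorter exon 4 and SRM-202 a longer exon 2, and each stop lies in that exon.

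AMD1 (ENSG00000123505), the decarboxylase that makes the aminopropyl donor, was the only 1 of the 9 genes called higher in the DHX34 kd. Its levels were 187.2, 182.7 and 196 CPM in SCR, 224.3, 225.8 and 208.9 in the DHX34 kd and 192.3, 199.4 and 200.6 in the UPF1 kd. The DHX34 kd libraries lay above all others, and the UPF1 kd overlapped SCR. The log2 fold change was 0.22 in the DHX34 kd (SE 0.044, edgeR adjusted p 0.0039) and 0.06 in the UPF1 kd (SE 0.031, edgeR adjusted p 0.15). The call in the DHX34 kd was lost in 5 of the 6 fits made without 1 library, with an adjusted p of up to 0.022, at log2 fold changes of 0.20 to 0.26. It was also lost with a gene length offset (0.17, adjusted p 0.018).

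The AMD1 mRNA is known for a short upstream reading frame on which ribosomes stall when polyamines are abundant. In the main transcript AMD1-204 (chr6:110874785-110895713, plus strand, GRCh38) it lies in the 5′ UTR at chr6:110874796-110874816, 11 bases from the cap site. It is printed whole, with its start and stop codons in capitals, as the regulatory element this gene is known for.
AMD1 upstream frame: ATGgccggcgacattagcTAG
The frame has 6 codons before its stop. Of 19224 annotated 5′ UTRs 42.8% hold an upstream ATG and 4.08% an upstream frame of 21 bases. Among the 9 genes ODC1, AMD1 and SMS have 1 upstream ATG in the main transcript, OAZ2 and SAT1 have 2, AZIN1 has 5, and OAZ1, SRM and MAT2A have none. AMD1-206, of NMD biotype, gave no stable level. It was at 1.67, 1.8 and 2.28 CPM in SCR, at 0, 0 and 2.09 in the DHX34 kd and at 0.91, 0 and 1.36 in the UPF1 kd. The zeros fell in libraries of both knockdowns, and the NMD-biotype sum of AMD1 passed no test (log2 fold changes of -1.04 and -0.18, edgeR adjusted p 0.64 and 0.59).

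SRM (ENSG00000116649), spermidine synthase, fell in both knockdowns. It was at 424.4, 422 and 439.4 CPM in SCR, at 346.4, 345 and 342.5 in the DHX34 kd and at 334.7, 330.9 and 301.8 in the UPF1 kd. All 6 knockdown libraries lay below all SCR libraries. The log2 fold change was -0.31 in the DHX34 kd (SE 0.034, edgeR adjusted p 0.00011) and -0.42 in the UPF1 kd (SE 0.037, edgeR adjusted p 4e-06). On the log2(TPM + 0.5) scale both calls were lost, at -0.16 (limma adjusted p 0.011) and -0.19 (limma adjusted p 0.0075).

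SMS (ENSG00000102172), spermine synthase, fell in both knockdowns as well. It was at 240.5, 235.3 and 239.6 CPM in SCR, at 203.1, 198.4 and 199.1 in the DHX34 kd and at 190.2, 190.2 and 195.7 in the UPF1 kd. The groups did not overlap. Its log2 fold changes were -0.25 (SE 0.033, edgeR adjusted p 0.00039) and -0.32 (SE 0.027, edgeR adjusted p 3e-06). Both calls of SMS were likewise lost on the log2(TPM + 0.5) scale, at -0.10 (limma adjusted p 0.036) and -0.12 (limma adjusted p 0.0058). SRM and SMS were also the only members whose protein-coding sums were called in the DHX34 kd (-0.32 and -0.26, where 1.34% of such sums were called lower), and both calls were lost when 1 library was left out, the SMS call in each of the 6 fits and the SRM call in 5. SMS has no transcript of NMD biotype here, and its protein-coding transcripts took 99.9% of its TPM in each group.

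SRM-202, the NMD-biotype transcript of SRM, rose against the coding transcripts in the UPF1 kd. Its exon 2 is 156 bases long, 35 bases longer than that of SRM-201 (chr1:11054589-11060018, minus strand, GRCh38), and its frame stops after 93 codons, 288 bases before the last junction. The stop lies at chr1:11059257-11059286 and is shown on the minus strand, in capitals.
SRM-202 stop: agttctcctaccaggagaTGAtcgccaacc
SRM-202 was at 1.15, 1.42 and 1.45 CPM in SCR, at 1.12, 1.13 and 0.59 in the DHX34 kd and at 2.35, 2.4 and 2.09 in the UPF1 kd. The UPF1 kd libraries stood highest and the DHX34 kd libraries lowest, all at under 2.5 CPM. The log2 ratio of NMD-biotype to protein-coding TPM was 1.16 higher in the UPF1 kd (SE 0.26, limma adjusted p 0.038), and that call was lost in each of the 6 fits made without 1 library (adjusted p up to 0.11). The NMD-biotype sum itself, 0.73 higher on the log2 scale (SE 0.18, edgeR adjusted p 0.020), was not called.

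MAT2A (ENSG00000168906), which makes S-adenosylmethionine, passed no test. It was at 301.5, 306.7 and 267.2 CPM in SCR, at 282.4, 280.5 and 360.2 in the DHX34 kd and at 281.8, 278.8 and 285.9 in the UPF1 kd. The third DHX34 kd library stood above all others, and the groups overlapped. The log2 fold change was 0.08 in the DHX34 kd (SE 0.086, edgeR adjusted p 0.57) and turned to -0.04 without that library. In the UPF1 kd it was -0.05 (SE 0.047, edgeR adjusted p 0.40).

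The 3′ UTR of MAT2A is known for hairpins that METTL16 methylates. Their core motif, TACAGAGAA, was searched on the transcript strand of MAT2A-201 (chr2:85539168-85545281, plus strand, GRCh38) and found 5 times in 1509 bases of 3′ UTR. Of 7692 3′ UTR windows of the same length 1.7% hold the motif at all and 1 holds as many copies. MAT2A was not left out of these windows, and if MAT2A-201 is among them, that 1 is MAT2A-201 itself. Copies nearest to and farthest from the stop codon, at chr2:85543802-85543830 and chr2:85545112-85545140, are shown with the motif in capitals.
MAT2A copy nearest the stop codon: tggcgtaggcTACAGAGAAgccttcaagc
MAT2A copy farthest from it: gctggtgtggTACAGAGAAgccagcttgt
Retained-intron transcripts took 10.9% ± 0.77 of MAT2A TPM in SCR, 11.3% ± 1.97 in the DHX34 kd and 11.9% ± 1.03 in the UPF1 kd (SD, n = 3), which is within the spread between libraries.

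OAZ1 (ENSG00000104904) and OAZ2 (ENSG00000180304) encode the antizymes. To read the full antizyme frame a ribosome must skip 1 base at a stop codon early in the mRNA. In OAZ1 the first frame ends after 68 codons and in OAZ2 after 32, and the joined frames have 228 and 189 codons. The sites lie in coding exons, at chr19:2271429-2271458 on the plus strand and at chr15:64691500-64691529 on the minus strand (GRCh38). They are shown with the stop codon in capitals because this signal defines the genes.
OAZ1 frameshift site: ctcggtggtgctccTGAtgcccctcaccca
OAZ2 frameshift site: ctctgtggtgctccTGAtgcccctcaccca
The sites are identical at 29 of 30 bases.

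OAZ1 was at 1055, 1008 and 1039 CPM in SCR, at 1021, 1041 and 927.7 in the DHX34 kd and at 1093, 1089 and 1099 in the UPF1 kd. The DHX34 kd overlapped SCR, and the UPF1 kd lay above both. No call was made against SCR, with log2 fold changes of -0.05 (SE 0.050, edgeR adjusted p 0.52) and 0.08 (SE 0.025, edgeR adjusted p 0.028). The value in the UPF1 kd was called with a gene length offset (0.17) and on the TPM scale (0.27), and was -0.02 on the TPM scale centred on the median.

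OAZ2 fell in both knockdowns. It was at 63.4, 61.5 and 65.3 CPM in SCR, at 51.4, 52.4 and 48.4 in the DHX34 kd and at 54.3, 52.4 and 53.1 in the UPF1 kd. All knockdown libraries lay below all SCR libraries, and the knockdowns overlapped each other. The log2 fold changes were -0.32 (SE 0.046, edgeR adjusted p 0.00065) and -0.26 (SE 0.036, edgeR adjusted p 0.00011). The call in the DHX34 kd was lost with length-scaled counts (-0.25, adjusted p 0.020) and on the centred TPM scale (-0.30, limma adjusted p 0.015). On the log2(TPM + 0.5) scale both calls of OAZ2 were lost, at -0.09 (limma adjusted p 0.16) and -0.02 (limma adjusted p 0.61).

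The models of the antizyme transcripts differ in how they hold the frameshift. Protein-coding models such as OAZ1-211 (chr19:2269520-2273490) and OAZ2-201 (chr15:64687573-64703281) leave out the skipped base, as a gap of 1 base, which joins both frames into 1, while OAZ1-204, also protein-coding, holds it. Models that hold the base took 91.7% of OAZ1 TPM over the 9 libraries and those that leave it out 6.07%. OAZ1-208 (54.2%) and OAZ1-209 (35.9%), both annotated as retained-intron transcripts, made up most of the former. For OAZ2 the shares were 47.8% and 49.0%. The retained-intron share of OAZ1, 91.2% ± 0.33 in SCR, 91.8% ± 0.22 in the DHX34 kd and 90.6% ± 0.30 in the UPF1 kd (SD, n = 3), is therefore a share of these models, and the part of the missing base in the assignment of reads was not tested.

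OAZ1 has a transcript of NMD biotype, OAZ1-207, whose frame stops in exon 2 after 52 codons, 246 bases before the last junction (chr19:2271782-2271811, plus strand, stop codon in capitals, shown because its level differed between the knockdowns).
OAZ1-207 stop: gatgatcggcTGAatgtaacagaggaacta
It was at 33.2, 29.4 and 26.9 CPM in SCR, at 22, 25.3 and 23.4 in the DHX34 kd and at 32.3, 30.7 and 32.2 in the UPF1 kd. The DHX34 kd libraries were lowest, and the UPF1 kd lay within the SCR range. Neither knockdown passed the test against SCR (-0.34, edgeR adjusted p 0.042, and 0.05, edgeR adjusted p 0.69).

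AZIN1 (ENSG00000155096, chromosome 8), the antizyme inhibitor, resembles ODC1 but has no decarboxylase activity. It was at 162.9, 170 and 180.4 CPM in SCR, at 160.5, 160.1 and 155.6 in the DHX34 kd and at 165.9, 175.6 and 179 in the UPF1 kd. The DHX34 kd libraries lay just below SCR, and the UPF1 kd overlapped it. Neither log2 fold change passed the test, at -0.11 (SE 0.042, edgeR adjusted p 0.085) and 0.02 (SE 0.039, edgeR adjusted p 0.80). Its main transcripts, both protein-coding, AZIN1-202 and AZIN1-201, were at similar counts in SCR (77.6 to 88.7 and 84.7 to 91.3 CPM). AZIN1-202 reached 89.3 to 93.9 CPM in the UPF1 kd, and AZIN1-201 was lower in both knockdowns, at 73.9 to 77.1 CPM in the DHX34 kd and 75.9 to 84.7 in the UPF1 kd. Of the 42 transcripts of the 9 genes that averaged 0.5 TPM or more, 15 were separate from SCR in the DHX34 kd and 19 in the UPF1 kd, against 26.7% and 36% of all 46459 such transcripts.

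SAT1 (ENSG00000130066), the acetyltransferase that starts polyamine breakdown, rose in the UPF1 kd. It was at 17.5, 15 and 15.3 CPM in SCR, at 14.9, 14.5 and 14.6 in the DHX34 kd and at 23.7, 22.7 and 23 in the UPF1 kd. The UPF1 kd libraries stood above all others, and the DHX34 kd libraries just below SCR. The log2 fold change was 0.53 in the UPF1 kd (SE 0.062, edgeR adjusted p 2.8e-05), a rise of 44.7%, and this call held in all 6 fits made without 1 library. In the DHX34 kd it was -0.12 (SE 0.071, edgeR adjusted p 0.26).

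The SAT1 pre-mRNA carries a poison exon, an exon with a stop codon whose inclusion is known to be reduced by polyamines. In SAT1-208, of NMD biotype, it is exon 4, of 110 bases, and is absent from the main coding transcript SAT1-204 (chrX:23783173-23786210, plus strand, GRCh38). The frame stops after 71 codons, 239 bases before the last junction. The first 30 bases of the exon, at chrX:23784294-23784323, are shown with the stop codon in capitals. The choice rests on SAT1-208, which by assigned counts made up most of the SAT1 rise in the UPF1 kd. Reads over the exon itself were not counted apart.
SAT1 poison exon: gttacagtctcTAGcttcgccatgtacatg
SAT1-208 was at 1.74, 0.92 and 0.87 CPM in SCR, at 2.14, 1.36 and 1.29 in the DHX34 kd and at 7.68, 6.24 and 6.52 in the UPF1 kd. The UPF1 kd libraries lay far above the rest, and the DHX34 kd overlapped SCR. The NMD-biotype sum rose 5.62-fold in the UPF1 kd, or 2.49 on the log2 scale (SE 0.27, edgeR adjusted p 0.00051). It was 0.44 higher on that scale in the DHX34 kd (SE 0.35, edgeR adjusted p 0.52) and not called.

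In the UPF1 kd the protein-coding sums of 4 of the 9 genes were called lower, those of ODC1, OAZ2 (-0.32), SMS (-0.35) and SRM (-0.46), where 15% of such sums were. The calls of ODC1 and OAZ2 were each lost in 4 of the 6 fits made without 1 library, those of OAZ2 at an adjusted p of up to 0.0064. Protein-coding SAT1 transcripts were at 12.1, 10.8 and 11.4 CPM in SCR, at 8.98, 9.46 and 8.95 in the DHX34 kd and at 12.6, 12.8 and 12.7 in the UPF1 kd. They were lowest in the DHX34 kd and did not overlap between any groups. Neither change against SCR was called (-0.33, SE 0.082, edgeR adjusted p 0.042, and 0.11, SE 0.069, edgeR adjusted p 0.30). Of the 7.19 CPM by which mean SAT1 was higher in the UPF1 kd than in SCR, the NMD biotype made up 5.63 CPM (78.4%) and the protein-coding biotype 1.26 CPM. As a share of the gene's TPM the NMD biotype took 6.43% ± 2.06 in SCR, 9.58% ± 2.78 in the DHX34 kd and 26.7% ± 2.58 in the UPF1 kd (SD, n = 3).

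**Figure D4:**
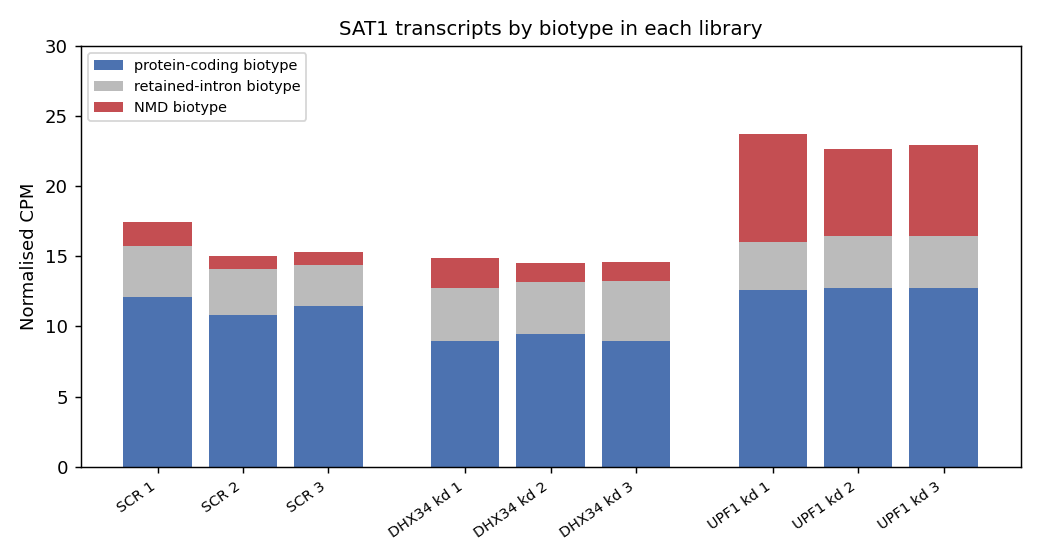
SAT1 transcripts in each library, stacked by biotype in normalised CPM. The NMD biotype takes 6.24 to 7.68 CPM in the UPF1 kd and at most 2.14 CPM elsewhere, and the protein-coding biotype lies between 8.95 and 12.8 CPM throughout.

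Transcripts of NMD biotype were measured for 5 of the 9 genes (ODC1, SAT1, SRM, OAZ1 and AMD1). In the UPF1 kd 2 of the 5 NMD-biotype sums were called, those of ODC1 and SAT1, both higher, and 10.4% of all 3771 such sums were called higher. None of the 5 was called in the DHX34 kd, where 0.621% of 3543 were. At an unadjusted p under 0.05 edgeR counted 2 there, ODC1 higher (0.47) and OAZ1 lower (-0.34). DESeq2 called 1, that of OAZ1, also lower (-0.36). The log2 ratio of NMD-biotype to protein-coding TPM was called higher for 3 of the 5 genes in the UPF1 kd, at a limma adjusted p of at most 0.05. These were ODC1 (1.31, SE 0.21), SAT1 (2.35, SE 0.26) and SRM, and 14.3% of 3821 genes were called higher. Leaving out 1 UPF1 kd library brought this count to between 0 and 1. In the DHX34 kd limma called no ratio of the 5, against 0.262% of 3821 genes, and 1 had an unadjusted p under 0.05, that of ODC1 (0.81, SE 0.25, limma adjusted p 0.47). With simulated 2-fold changes this test recovered 19.3% in the UPF1 kd, 0% in the DHX34 kd and 0% between the knockdowns. Between the knockdowns the same test called 12.8% of the measured ratios higher, so the simulated recovery does not tell what was detectable in the measured libraries. An uncalled ratio in the DHX34 kd is not shown to be unchanged.

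**Figure D5:**
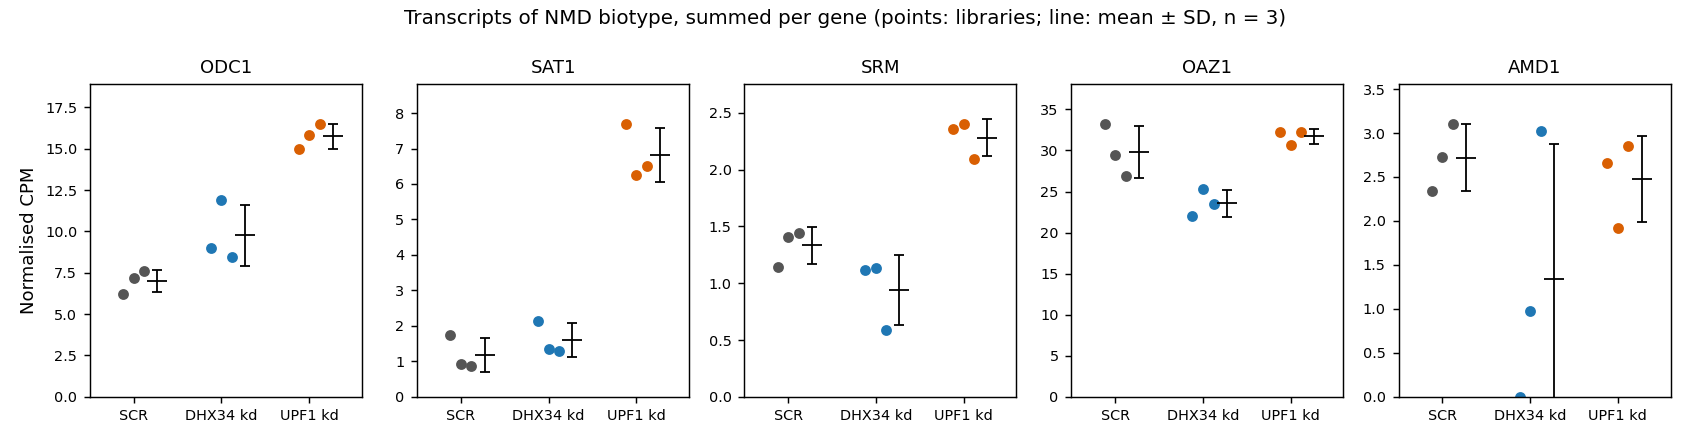
NMD-biotype transcripts summed per gene in normalised CPM (linear axes from 0), with 1 point per library and the mean ± SD of 3 libraries. ODC1, SAT1 and SRM are highest in the UPF1 kd, OAZ1 is lowest in the DHX34 kd, and AMD1 spans 0 to 3.02 CPM within the DHX34 kd, where the bar is drawn down to 0.

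Retained-intron transcripts were measured against coding transcripts for 7 of the genes. Limma called none of the 7 ratios in either knockdown, against 0.346% (DHX34 kd) and 0.211% (UPF1 kd) of 5207 genes. At an unadjusted p under 0.05 there was 1 in each, SAT1 in the DHX34 kd (0.55 higher, SE 0.18, limma adjusted p 0.48) and SRM in the UPF1 kd (0.87 higher, SE 0.27, limma adjusted p 0.22).

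The knockdowns were also set against each other, to test the difference between them directly. Of the 9 genes 2 were called, both higher in the UPF1 kd, where 9.89% of 17435 genes were called higher and 17.4% in either direction. SAT1 was higher by 0.67 on the log2 scale (SE 0.050, edgeR adjusted p 3.2e-06) and ODC1 by 0.19 (SE 0.035, edgeR adjusted p 0.002). The ODC1 call was lost in 4 of the 6 fits made without 1 library (adjusted p up to 0.015), and the SAT1 call in none. AZIN1 (0.14, edgeR adjusted p 0.011), OAZ1 (0.14, edgeR adjusted p 0.024) and AMD1 (-0.14, edgeR adjusted p 0.013) did not pass, nor did OAZ2 (0.08), SMS (-0.05), SRM (-0.09) and MAT2A (-0.11). Of the isoform sums 3 were called, all higher in the UPF1 kd. These were the NMD biotype of SAT1 (2.08, SE 0.22, edgeR adjusted p 0.0007), the protein-coding biotype of SAT1 (0.47, SE 0.068, edgeR adjusted p 0.0032) and the NMD biotype of OAZ1 (0.42, SE 0.061, edgeR adjusted p 0.003). Without 1 library the protein-coding SAT1 call was lost in all 6 fits (adjusted p up to 0.019), the OAZ1 call in 5 (up to 0.018) and the NMD-biotype SAT1 call in 1, without the first UPF1 kd library (0.0051). Over all genes 9.05% of NMD-biotype sums and 4.32% of protein-coding sums were called higher. The NMD-biotype ratio of SAT1 was 1.59 higher (SE 0.24, limma adjusted p 0.016), where 12.8% of genes were called higher, and this call was lost without any 1 of the UPF1 kd libraries (limma adjusted p up to 0.068). Limma called none of the 7 retained-intron ratios, against 0.096% of all genes, and 1 of them had an unadjusted p under 0.05.

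Beyond the 9 genes, 26 other genes of the pathway were examined, which cover supply and antizyme relatives, catabolism, transport, the S-adenosylmethionine cycle, methylthioadenosine salvage and hypusine. In the DHX34 kd 24 of them were expressed enough to be tested and 5 were called, 1 higher and 4 lower, where 10.4% of all genes were called. EIF5A, the translation factor that carries hypusine made from spermidine, fell by 0.29 on the log2 scale (SE 0.043, edgeR adjusted p 0.00075). In methylthioadenosine salvage, which recovers the by-product of SRM and SMS, ENOPH1 fell by 0.40 and APIP by 0.27. SLC3A2, the heavy chain of several amino acid transporters, fell by 0.20, and AHCYL1, related to the hydrolase of S-adenosylhomocysteine, rose by 0.18.

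In the UPF1 kd 25 of the 26 were tested and 7 were called, 2 higher and 5 lower, a share near the 25.3% of all genes. SMOX, which oxidises spermine, rose by 0.38 on the log2 scale (SE 0.087, edgeR adjusted p 0.0041) and SLC3A2 by 0.29 (SE 0.026, edgeR adjusted p 4e-06). EIF5A2 fell by 0.35, EIF5A by 0.27, MAT2B, the regulatory subunit of MAT2A, by 0.32 and APIP by 0.20. Between the knockdowns 4 of 24 were called, a share near the 17.4% of all genes. SLC3A2 was 0.52 and ENOPH1 0.48 higher in the UPF1 kd on the log2 scale, and MAT2B was 0.22 and AHCYL1 0.15 lower. The median log2 fold change of the other pathway genes was -0.10 in the DHX34 kd and -0.02 in the UPF1 kd.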

How the data were processed

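Poly(A) RNA of 9 K562 libraries was sequenced, 3 per group by the sample titles. The authors quantified transcripts with salmon (with GC bias correction) against Ensembl transcripts of GRCh38 and deposited, per library, expected counts and TPM for 203027 transcripts. The 4 further deposited tables hold the authors' sleuth and SUPPA2 comparisons and were not used. Transcripts were joined by identifier to GENCODE (97.9% matched, with 98.1% of counts), a later release than the authors used, which gave genes, biotypes, exons and coordinates.

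Expected counts were summed per gene and per gene and biotype, rounded, and tested with edgeR 4.0.16 (TMM, filterByExpr with a minimum count of 10, quasi-likelihood) in R 4.3.3 on the 6 libraries of each comparison, with Benjamini-Hochberg adjustment over all genes or sums and a limit of 0.005. The log2 ratio of biotype TPM to protein-coding TPM (pseudocount 0.1, gene mean of at least 1 TPM, biotype mean of at least 0.1 TPM) was tested with limma 3.58.1 at 0.05. DESeq2 1.42.0 was an alternative. Tests were checked on simulated data: 2-fold changes were recovered for 80% of 200 genes in the DHX34 kd comparison and 84.5% in the UPF1 kd comparison, and for 38.5% and 50.5% of 200 gene-by-biotype sums. The p-values measure the spread between 3 libraries a group, and counts of pseudogenes named after the members came to at most 0.049% of the member's counts. Sequences were read from GRCh38.

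The members, lists and comparisons were chosen with earlier results of these data known. All 9 members are named. Of the 26 other genes those called are counted and at most 6 per comparison named, by size of change. Member transcripts are named if they are the main coding one or have a mean of at least 0.5 TPM. The TPM scale centred on the median was added after seeing the data. 1 of the markers of other cell types is not reported here.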

Additional observations from a re-analysis of the deposited data

Results flagged for a closer look

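Results of the direct comparison are listed here because the effect of the UPF1 kd differed from that of the DHX34 kd by its own test. SAT1 was 0.67 higher on the log2 scale (edgeR adjusted p 3.2e-06) and ODC1 0.19 (edgeR adjusted p 0.002), in all 3 UPF1 kd libraries against all 3 DHX34 kd libraries. The NMD-biotype sum differed by 2.08 for SAT1 (edgeR adjusted p 0.0007) and by 0.42 for OAZ1 (edgeR adjusted p 0.003), and the protein-coding sum of SAT1 by 0.47 (edgeR adjusted p 0.0032). The NMD-biotype ratio of SAT1 differed by 1.59 (limma adjusted p 0.016). Of these, the protein-coding call of SAT1 was lost in all 6 fits made without 1 library, the OAZ1 call in 5, the ODC1 call in 4, and the NMD-biotype ratio and sum of SAT1 in 3 and 1, while the call of the SAT1 gene was lost in none. Groups of 3 libraries are too small for a test of single outlying libraries.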

How the results depend on the processing

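Of 1371 single values recomputed under the alternatives, 1188 kept their direction and side of the threshold, 98 lost a call, 45 gained one and 40 changed sign. The 1188 include values that were uncalled and stayed so. Alternatives that change only the threshold reuse the same fit, so no direction could change there, and the count is no measure of how stable the calls are. The values that changed sign were at most 0.455 in size (log2) as reported, and the cause was not tested. SAT1-208 and SRM-202 lay under 2 CPM in SCR, and the part of depth in their values was not tested.

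In the DHX34 kd the 5 genes called became 3 with length-scaled counts, 1 on log2(TPM + 0.5) or log2(TPM + 0.1), and 2 with libraries centred on their median. Its 2 isoform sums called became 7 at an adjusted p of at most 0.05, 1 with RLE size factors, 6 with DESeq2, 4 with no filter, and 0 to 1 without 1 library. Between the knockdowns the 2 genes called became 5 at 0.05, 1 on the centred TPM scale and 1 to 3 without 1 library, and the 3 sums became 8 at 0.05, 8 with DESeq2, 5 with no filter and 0 to 3 without 1 library. The 3 NMD-biotype ratios called in the UPF1 kd became 0 at 0.005 and 0 to 2 without 1 library. The 1 called between the knockdowns became 0 at 0.005, 2 with a pseudocount of 1 TPM, a biotype mean of at least 0.5 TPM or CPM in place of TPM, and 0 to 1 without 1 library.

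Whether equal replicate numbers mark paired libraries could not be decided, because groups of 3 libraries leave little to correlate. Deviations of same-numbered libraries correlated at -0.178 to 0.085 across genes, and not every library correlated best with its own number. With the replicate block the counts of genes called were 4 (DHX34 kd), 5 (UPF1 kd) and 1 (between them), those of sums 0, 5 and 1, and those of NMD-biotype ratios 0, 0 and 0. Between the knockdowns the calls lost were those of ODC1, the NMD-biotype sum of OAZ1, and the protein-coding sum and NMD-biotype ratio of SAT1 (adjusted p 0.0054, 0.019, 0.020 and 0.078). With the replicate block and a gene length offset the genes called were 1, 6 and 1.

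Sign changes of log2 fold changes in the DHX34 kd were OAZ1 at 0.058 with a gene length offset, 0.057 with the block added, 0.105 on either TPM scale and -0.0871 to 0.0055 without 1 library, AZIN1 at 0.080 and 0.081 and SAT1 at 0.049 and 0.050 on the TPM scales, and MAT2A, whose values without 1 library ran from -0.043 to 0.13 (protein-coding sum from -0.043 to 0.119). Those of the UPF1 kd were ODC1 at 0.117 and MAT2A at 0.178 on either TPM scale, OAZ1 at -0.023, AZIN1 at -0.015 and AMD1 at -0.035 with centring, and AZIN1 at -0.041 with the length offset, with or without the block. Without 1 library AZIN1 ran from -0.025 to 0.047 and, between the knockdowns, MAT2A from -0.18 to 0.0015, and OAZ2 was -0.014 with centring. The retained-intron ratio of AZIN1 changed sign with a pseudocount of 1 TPM, to -0.020 in the DHX34 kd and -0.0076 in the UPF1 kd. Without 1 library further uncalled values crossed 0. Against SCR in the DHX34 kd these were the NMD-biotype ratio of SRM (-0.370 to 0.074) and the retained-intron ratios of AZIN1 (-0.045 to 0.330), AMD1 (-0.285 to 0.081) and MAT2A (-0.044 to 0.212). Those of the UPF1 kd were the protein-coding sums of AZIN1 (-0.070 to 0.0125) and AMD1 (-0.011 to 0.052), the NMD-biotype sum of OAZ1 (-0.028 to 0.120) and the retained-intron ratio of SAT1 (-0.083 to 0.013), and between the knockdowns the retained-intron ratios of OAZ2 (-0.249 to 0.0551) and MAT2A (-0.065 to 0.191).

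Over all genes the DHX34 kd count of 1768 became 4403 at 0.05, 3034 with DESeq2, 3396 with no filter, 1007 with the replicate block, 599 with the block and length offset, 741 with length-scaled counts, 915 and 957 on the TPM scales, 356 with centring and 781 to 1785 without 1 library. The UPF1 kd count of 4345 became 6917 at 0.05, 2762 with length-scaled counts and 2887 with centring. Between the knockdowns 3026 became 5691 at 0.05, 1674 with length-scaled counts, 1468 and 1477 on the TPM scales, where 70.6% of calls were higher against 57.0%, 1241 with centring and 1915 to 3865 without 1 library.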

Other observations

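MTAP, which recycles the methylthioadenosine that SRM and SMS release, was named after its values were seen. It was at 1.96, 1.4 and 1.18 CPM in SCR, at 1.14, 0.84 and 1.02 in the DHX34 kd and at 1.14, 1.25 and 1.08 in the UPF1 kd. These levels are far below those of the salvage enzymes APIP (46.3 to 59.2 CPM) and ENOPH1 (86.1 to 130.2 CPM) in the same libraries.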
